A study of Rattus norvegicus with 7 samples.

Results

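The ubiquitin and proteasome genes described here are 53 of the 6046 named rat genes on a whole-brain array. The rule picks them by name. It takes, by accession, every transcript probe of a RefSeq gene whose symbol starts with Psma, Psmb, Psmc, Psmd, Psme, Ube2, Usp or Uba. The 3 immunoproteasome subunits Psmb8, Psmb9 and Psmb10 are left out. The rule uses no measured value to pick genes, but this group of genes was chosen with earlier results of these data known. The 53 genes had 64 probes, and each gene was read from the probe with the highest mean signal. The RefSeq table lists 168 protein-coding genes with such names, so the array covered part of the family. Of the 53, 51 could be tested: the probe of Ube2b was masked on all 7 arrays, and that of Usp54 was above background on none.

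The study compared alcohol-naive adult male rats of 2 lines derived from Wistar stock by selective breeding, the alcohol-preferring (P) and the non-preferring (NP) line. All animals were housed in pairs. Total RNA of the whole brain was hybridized to 1-colour arrays, 1 rat per array, for 4 P rats (P 1 to P 4) and 3 NP rats (NP 2 to NP 4), after the authors had dropped an NP array in quality control. Each line is 1 selected population, so a difference between lines need not relate to alcohol preference.

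Ubiquitin is a small protein that cells attach to other proteins through a relay of enzymes: an E1 activates it, an E2 carries it and an E3 ligase places it on the target. Chains of ubiquitin send many targets to the proteasome, a barrel of alpha and beta rings (the 20S core) capped by a 19S particle that unfolds the target, while deubiquitinases such as the Usp proteases take ubiquitin off again. In neurons this system turns over synaptic proteins, and related relays attach the ubiquitin-like proteins Nedd8 and Isg15.

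Signal is given throughout as log2 normalized signal, and differences are on that log2 scale. The levels of different probes are not comparable with each other. Between 77.9% and 85.9% of the 33849 transcript probes were above background per array, with the highest share on NP 4, and 59 to 62 of the 64 probes for these genes were. Negative control spots had medians between 6.19 and 6.33 after background correction, before the quantile normalization that the gene signals went through. The level is therefore only a rough mark for them. Probes near it, such as those of Psma3 and Ube2d2b, carry little signal. The headers give 3 scan dates: NP 2, NP 3, P 1 and P 2 share date 1, NP 4 stands alone on date 2, and P 3 and P 4 share date 3. Of 36 cell type markers, 29 were on the array. Above background on all 7 arrays were 2 of 4 neuron markers, Uchl1 and Nefl. The same held for 5 of 6 oligodendrocyte markers, Mbp among them, 2 of 3 endothelial and 0 of 1 pituitary markers. All 5 astrocyte markers, Slc1a3 among them, were above it, as were all 5 microglia, 3 choroid plexus and 2 erythroid markers. In bulk tissue, fewer cells of a type and less RNA per cell cannot be told apart.

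In the comparison of the lines over all 7 arrays, none of the 51 tested genes was called in the fit without a block. Line and scan date overlap in part, and with scan date as a block 5 of the 51 were called lower in P, where 3.47% of named genes were. Only date 1 holds rats of both lines, so the differences in the block fit come from the date 1 arrays alone. A call here is a Benjamini-Hochberg adjusted p under 0.05 in limma, adjusted over all 29003 tested probes, of which 84 (0.29%) were called; among named genes with 1 probe each the share was 0.176%. The smallest adjusted p among the ubiquitin and proteasome genes was 0.303, for Psmd12. Their differences, P minus NP, ran from -0.60 to 0.48 with a median of -0.01, against 0.03 over all named genes. At an unadjusted p under 0.05 there were 7 of 51, 5 lower and 2 higher in P, where 11.4% of all named genes passed that mark. The P rats were fully separated from the NP rats in 9 of the 49 genes with a value on every array, beside 12.5% of named genes.

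Of the 51 genes, 49 differed by less than 0.5, none by more than 1, and the 95% confidence interval of limma lay within 1 of 0 for 49. Standard errors ran from 0.104 to 0.300 with a median of 0.148. In simulated data with the same number of P and NP arrays, 13% of changes of 0.5 were recovered, 68.8% of changes of 1 and 97.1% of changes of 2. The simulated noise was independent between probes and arrays and held no scan dates. A line difference of 0.5 in a single gene would therefore mostly have gone uncalled.

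**Figure D1:**
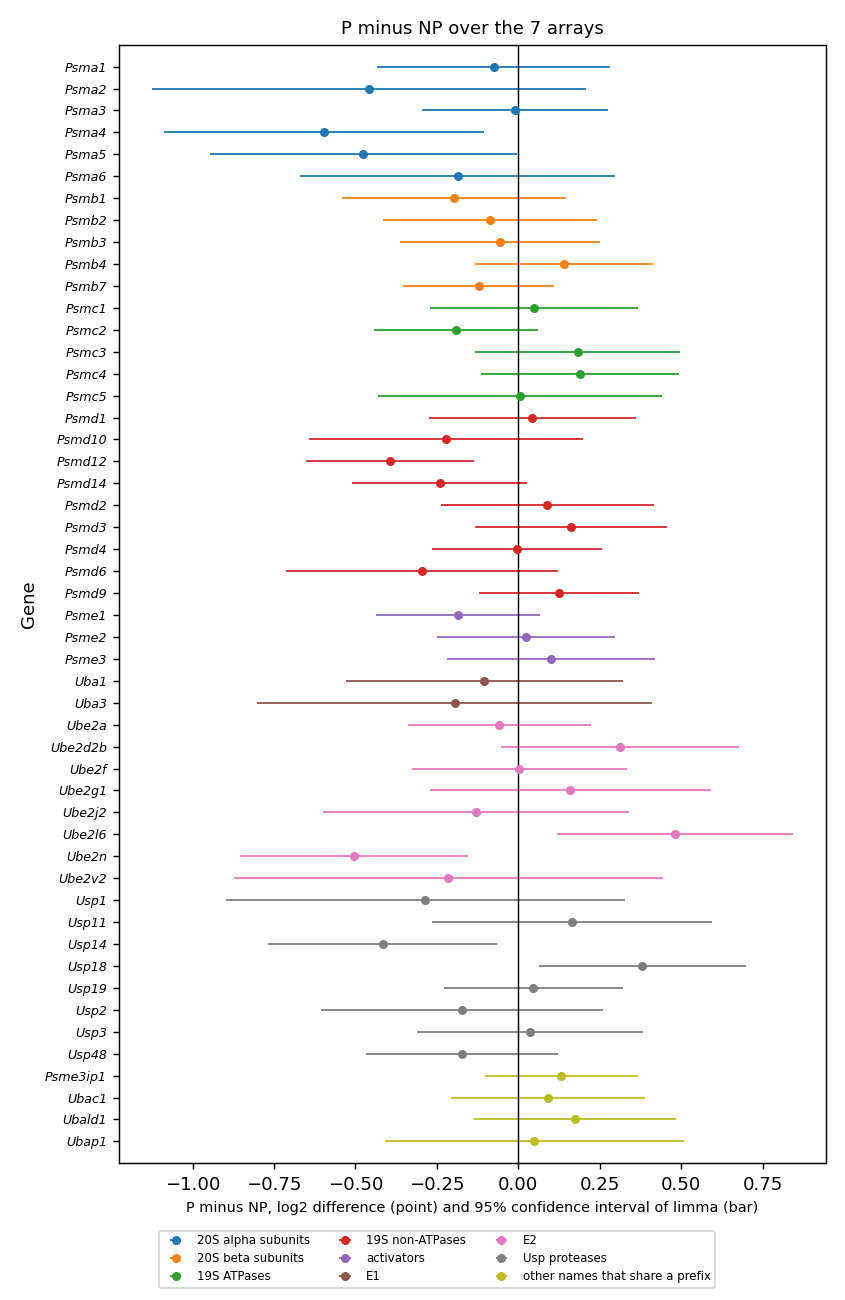
P minus NP difference in log2 signal for 50 of the 51 tested genes (points) with the 95% confidence interval of limma (bars), coloured by role. The points lie between -0.60 and 0.48, and no gene was called in this fit without a block.

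The 20S alpha subunits form the outer rings of the core and gate the entry of substrates. All 6 on the array had a mean below NP in P, with a median difference of -0.32, and none was called. Psma4 read 10.12, 9.54, 10.61 and 10.34 in P 1 to P 4, and 10.67, 10.63 and 10.94 in NP 2 to NP 4. Every P value lay below every NP value, though P 3 came within a few hundredths of NP 3. The difference was -0.60 ± 0.22 (SE; adjusted p = 0.375 in limma). Psma5 read 9.29, 8.94, 10.00 and 9.48 in the P rats and 9.85, 10.01 and 9.85 in the NP rats, a difference of -0.48 ± 0.21 (adjusted p = 0.430). Psma2 read 7.71, 7.18, 8.69 and 8.40 in P, and 8.36, 8.46 and 8.54 in NP. In both genes P 1 and P 2 were the lowest rats, while P 3 lay within or above the NP range and P 4 lay within it for Psma2 and below it for Psma5. Psma1 differed by -0.08 ± 0.16 (adjusted p = 0.868), Psma6 by -0.19 ± 0.22 and Psma3 by -0.01 ± 0.13.

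Promoter sequence was available for 47 of the 53 genes in RefSeq windows on GRCr8 that run from 250 bases before to 50 bases after the start of the gene. Proteasome genes are known targets of Nfe2l1 and Nfe2l2, which bind the antioxidant response element, so its core TGACNNNGC was searched on both strands. It occurred in 9 of the 47 windows (19.1%), beside 12.1% of all 33469 windows: Psma3, Psmb2, Psmd1, Psmd3, Psmd9, Ube2n, Usp14, Usp2 and Usp3. The cAMP response element TGACGTCA occurred in 1 window, that of Psmb2 (2.13%, beside 1.83% of all). The set of all windows includes genes that are not on the array. Only the ubiquitin and proteasome genes were reduced to 1 window per gene, so these shares cover unlike sets. The 250 bases before the start are shown for the 3 alpha subunits called lower in P within scan date 1, and for Ube2n, the E2 with the largest negative line difference; capitals mark the match to TGACNNNGC, on the reverse strand in Ube2n, and the first 3 hold none. Positions are chr17:55260442-55260691 on the minus strand for Psma2, chr8:64236270-64236519 on the plus strand for Psma4, chr2:198584255-198584504 on the plus strand for Psma5 and chr7:32040959-32041208 on the plus strand for Ube2n. Each sequence reads in the direction of its gene.
Psma2: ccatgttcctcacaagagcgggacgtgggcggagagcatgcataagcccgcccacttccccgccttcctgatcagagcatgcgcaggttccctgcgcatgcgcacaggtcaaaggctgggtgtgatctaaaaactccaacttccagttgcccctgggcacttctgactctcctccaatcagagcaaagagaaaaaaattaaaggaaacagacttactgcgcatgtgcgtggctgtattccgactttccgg
Psma4: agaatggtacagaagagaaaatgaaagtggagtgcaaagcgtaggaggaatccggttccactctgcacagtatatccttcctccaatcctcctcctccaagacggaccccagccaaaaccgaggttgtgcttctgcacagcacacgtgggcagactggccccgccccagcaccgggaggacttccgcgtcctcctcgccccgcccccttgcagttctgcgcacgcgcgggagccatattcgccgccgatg
Psma5: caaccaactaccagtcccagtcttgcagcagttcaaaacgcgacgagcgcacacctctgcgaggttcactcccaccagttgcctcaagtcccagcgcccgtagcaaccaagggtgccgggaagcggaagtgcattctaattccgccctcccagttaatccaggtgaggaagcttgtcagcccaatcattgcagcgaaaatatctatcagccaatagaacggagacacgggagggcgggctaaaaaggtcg
Ube2n: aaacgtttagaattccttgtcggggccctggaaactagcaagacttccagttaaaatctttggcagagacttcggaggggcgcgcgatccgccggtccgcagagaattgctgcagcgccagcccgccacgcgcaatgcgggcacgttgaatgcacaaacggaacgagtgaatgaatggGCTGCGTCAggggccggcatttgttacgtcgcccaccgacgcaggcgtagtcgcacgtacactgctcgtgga

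The match in Ube2n begins at position -72 relative to the start of the gene. The windows of Psma2, Psma4 and Psma5 do not share this 9-letter core.

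The 20S beta subunits form the inner rings, which hold the proteolytic sites. None of the 5 was called, and their median difference was -0.09. Psmb1 had the lowest difference, -0.20 ± 0.16 (adjusted p = 0.618), and Psmb4 the highest, 0.14 ± 0.12 (adjusted p = 0.661). Psmb7, a catalytic subunit with trypsin-like activity, read 11.76, 11.65, 11.68 and 11.66 in P and 11.82, 11.79 and 11.82 in NP. Those values did not overlap, yet the difference was small, at -0.12 ± 0.10 (adjusted p = 0.649).

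The 19S ATPases are the motor that pulls substrates into the core. Of 5, 4 had positive differences and 1 a negative one, with a median of 0.05 and none called. Psmc2 had the smallest p, with 11.07, 11.14, 11.24 and 11.03 in P, and 11.37, 11.36 and 11.20 in NP. P 3 lay above NP 4, so the groups overlapped, and the difference was -0.19 ± 0.11 (adjusted p = 0.516). Psmc4 differed by 0.19 ± 0.14 (adjusted p = 0.585). NP 2 has no value for Psmc3, whose spot was set to missing there, and its difference of 0.18 ± 0.14 rests on the other 6 arrays.

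The 9 Psmd genes include the scaffold and lid of the 19S particle and the assembly chaperones Psmd9 and Psmd10. Their median difference was -0.005. Psmd12, a lid scaffold subunit, had the smallest p of all 51 genes. It read 9.38, 9.43, 9.47 and 9.61 in P 1 to P 4, and 9.82, 9.79 and 9.99 in NP 2 to NP 4. All 4 P rats were below all 3 NP rats, and P 1 and P 2 differed little from P 3 and P 4. The difference was -0.39 ± 0.12 (unadjusted p = 0.0066, adjusted p = 0.303 in limma). Psmd14, the metalloprotease of the lid that removes ubiquitin from incoming substrates, also did not overlap, with 10.79, 10.77, 10.99 and 11.01 in P and 11.10, 11.25 and 11.04 in NP. Its difference was -0.24 ± 0.12 (adjusted p = 0.460). The highest difference of the group was 0.16 ± 0.13 for Psmd3 (adjusted p = 0.638).

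Of the activators that cap the core in place of the 19S particle, Psme1 and Psme2 form the interferon-inducible ring and Psme3 the nuclear one. Psme1 read 10.73, 10.70, 10.74 and 10.55 in P and 10.94, 10.90 and 10.75 in NP. P 3 and NP 4 nearly met at the boundary between the groups, and the difference was -0.19 ± 0.11 (adjusted p = 0.527). Psme2 differed by 0.02 ± 0.12, and Psme3 by 0.10 ± 0.14 on the 5 arrays that measured it (NP 2 and P 4 have no value).

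Both E1 subunits were measured: Uba1, the main activating enzyme of ubiquitin, and Uba3, the catalytic subunit of the E1 for Nedd8. Uba1 read 11.44, 11.64, 10.94 and 10.91 in P, and 11.55, 11.26 and 11.20 in NP. Uba3 read 6.92, 6.46, 7.81 and 7.55 in P, and 7.33, 7.34 and 7.48 in NP. Its P 2 value lay near the level of the negative controls. The P rats spread beyond the NP rats on both sides in both genes, with P 1 and P 2 above P 3 and P 4 in Uba1 and below them in Uba3. The line differences were -0.10 ± 0.19 (adjusted p = 0.841) and -0.19 ± 0.27 (adjusted p = 0.790).

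Of the 9 tested E2 genes, 5 had positive and 4 negative differences, and the median was 0.003. Ube2n, the E2 that builds non-degradative chains in signalling and DNA damage responses, read 7.16, 6.96, 6.97 and 7.05 in P and 7.92, 7.42 and 7.28 in NP. The P rats were close together and all below the NP rats, among which NP 2 was highest. The difference was -0.50 ± 0.16 (adjusted p = 0.322). Its inactive partner subunit Ube2v2 differed by -0.22 ± 0.30 (adjusted p = 0.786), and its P rats ran from 9.40 to 10.85. Ube2l6, the interferon-inducible E2 for Isg15, went the other way, with 7.99, 8.16, 8.21 and 7.79 in P, and 7.68, 7.77 and 7.22 in NP. P 4 and NP 3 nearly met at the boundary, and the difference was 0.48 ± 0.16 (adjusted p = 0.347).

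The Usp proteases had 4 positive and 4 negative differences, with a median of -0.07. Usp18, which removes Isg15, read 7.76, 8.17, 7.71 and 7.79 in P, and 7.55, 7.57 and 7.31 in NP. All 4 P rats were above all NP rats, by 0.38 ± 0.14 (adjusted p = 0.382), and a dimmer Usp18 probe gave 0.25. Usp14, which sits on the 19S particle and trims ubiquitin from bound substrates, read 10.74, 10.65, 11.26 and 11.03 in P, and 11.22, 11.38 and 11.41 in NP. P 1 and P 2 were lowest and P 3 lay above NP 2. The difference was -0.42 ± 0.16 (adjusted p = 0.383).

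Among the 4 genes that share only a name prefix, all had positive differences below 0.20 and none was called. Psme3ip1, a partner of the Psme3 activator, read 9.34, 9.30, 9.42 and 9.38 in P and 9.28, 9.21 and 9.19 in NP, a difference of 0.13 ± 0.11 (adjusted p = 0.627) with no overlap. Ubald1 differed by 0.17 ± 0.14 (adjusted p = 0.631). For Ubap1, a subunit of the ESCRT machinery that sorts ubiquitinated cargo, the brighter probe gave 0.05 and the other 0.58. It was the only one of 11 genes with 2 tested probes whose probes lay more than 0.5 apart in the line difference. In the other 10 the gap ran from 0.005 to 0.42, and 8 of the 11 pairs had the same sign. Between the P rats of dates 1 and 3, described below, some probe pairs went opposite ways. These were Psme3 (-0.52 and 0.01), Ubap1 (-0.25 and 0.54), Ube2g1 (-0.35 and 0.37) and Usp18 (-0.37 and 0.21), while the remaining pairs shared a sign.

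**Figure D2:**
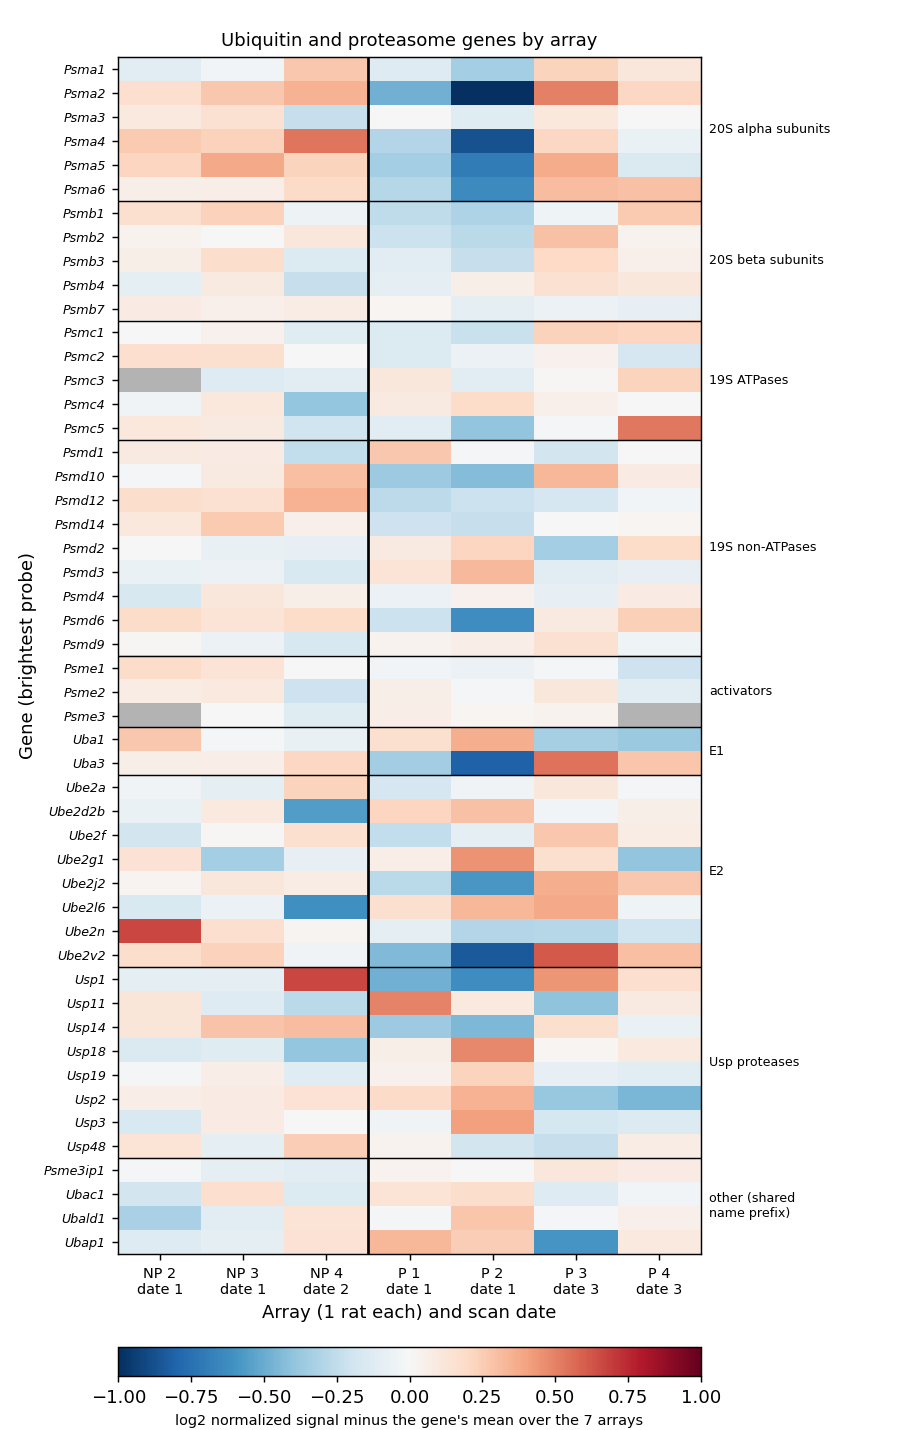
Log2 normalized signal of 50 of the 51 tested genes on each of the 7 arrays, as the deviation from that gene's mean (blue lower, red higher, grey no value), with genes ordered by role and arrays by line and scan date. The columns of P 1 and P 2 are blue across 5 of the 6 alpha subunits, while P 3 is red or white there.

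Within scan date 1, where 2 P and 2 NP arrays can be compared without a change of date, 6 of the 51 genes were lower in P and none higher. Over all named genes in that comparison 6.37% were called, 3.77% lower and 2.6% higher, so 11.8% of the ubiquitin and proteasome genes stood beside 3.77% of named genes for the lower direction. Those 6 were Psma2 (-0.97 ± 0.18, adjusted p = 0.0225 in limma), Ube2v2 (-0.84 ± 0.15, adjusted p = 0.0232), Psma5 (-0.82 ± 0.15, adjusted p = 0.0248), Psma4 (-0.82 ± 0.18, adjusted p = 0.0354), Usp14 (-0.61 ± 0.13, adjusted p = 0.0331) and Uba3 (-0.64 ± 0.16, adjusted p = 0.0495). In linear terms Psma2 was 1.95 times lower and Ube2v2 1.79 times lower in the 2 P rats. The alpha subunits had a median of -0.67, all 6 negative, beside 0.05 over all named genes.

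All 6 calls were lost without P 2, which leaves 1 P rat on that date. Then 0 of the 51 genes were called, beside 0.445% of named genes, the difference of Psma2 was -0.70 (adjusted p = 0.0738) and the alpha median was -0.44. Leaving out P 1 gave 10 calls, 9 lower and 1 higher, where 8.77% of named genes were called. Leaving out NP 2 or NP 3 gave 5 each, where 7.31% and 3.03% of named genes were called. The alpha median stayed negative in these fits, between -0.85 and -0.44. With the authors' own log2 values no gene was called within date 1, where 0.0708% of named genes were, and Psma2 differed by -1.26 (adjusted p = 0.17). With the block for scan date, where the differences again come from the date 1 arrays, Uba3 missed the threshold at an adjusted p of 0.0543.

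The P rats were scanned in 2 pairs. In a fit with 3 groups of arrays, 13 of the 51 genes differed between the P rats of date 1 (P 1 and P 2) and those of date 3 (P 3 and P 4), 11 lower and 2 higher in P 1 and P 2. Of all named genes 15.6% were called in that comparison, 7.47% lower and 8.17% higher, while of the ubiquitin and proteasome genes 21.6% were lower and 3.92% higher. The comparison shares P 1 and P 2 with that within date 1, so the 2 are not independent. Scan date and the identity of the rats cannot be told apart here, since no P rat was scanned on both dates.

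The largest of these differences were in Psma2 and Ube2v2. Psma2 had means of 7.44 ± 0.37 (SD, n = 2) in P 1 and P 2 and 8.55 ± 0.21 (SD, n = 2) in P 3 and P 4, a difference of -1.10 ± 0.18 (adjusted p = 0.0046 in limma), or 2.15 times lower. Ube2v2 read 9.80 and 9.40 in P 1 and P 2, against 10.85 and 10.54 in P 3 and P 4, with the NP rats between at 10.41, 10.47 and 10.20. Its difference was -1.10 ± 0.17 (adjusted p = 0.0040), and a dimmer second probe of the gene gave -0.68. Uba3 was lower by -0.99 ± 0.17 (adjusted p = 0.0054), with its P 2 value near the level of the negative controls.

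Among the other alpha subunits Psma6 (-0.76 ± 0.15, adjusted p = 0.0087), Psma4 (-0.65 ± 0.20, adjusted p = 0.0469) and Psma5 (-0.63 ± 0.19, adjusted p = 0.0421) were lower in P 1 and P 2. Psma6 read 10.35 and 9.99 in those rats, 10.94 and 10.92 in P 3 and P 4, and 10.69, 10.69 and 10.82 in the NP rats. The NP rats thus lay between the P pairs, as they did for Uba3 and Ube2v2. The alpha median was -0.64, and it was -0.65 under 75th percentile scaling, where 5 of the 6 were negative. None of the 5 beta subunits, the 5 ATPases or the 3 activators was called. Of the Psmd genes, the chaperone Psmd10 (-0.61 ± 0.15, adjusted p = 0.0238) and the lid subunit Psmd6 (-0.59 ± 0.16, adjusted p = 0.0284) were lower.

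E1, E2 and Usp genes were called in both directions, though all 3 called E2 genes were lower. Ube2j2, an E2 of endoplasmic reticulum quality control, was lower by -0.74 ± 0.15 (adjusted p = 0.0084). Usp1, which deubiquitinates DNA repair factors, was lower by -0.85 ± 0.23 (adjusted p = 0.0298). It read 7.24 and 7.10 in P 1 and P 2, 8.16 and 7.89 in P 3 and P 4, and 7.63, 7.63 and 8.39 in the NP rats, where NP 4 was the highest of all. Higher in P 1 and P 2 were Usp2, a deubiquitinase with a daily rhythm in many tissues, by 0.69 ± 0.13 (adjusted p = 0.0080), and Uba1 by 0.61 ± 0.15 (adjusted p = 0.0232). Usp2 read 10.83 and 10.98 in P 1 and P 2, 10.26 and 10.18 in P 3 and P 4, and 10.71, 10.72 and 10.78 in the NP rats, so P 3 and P 4 were the rats apart from the rest. Its second probe gave 0.45.

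Leaving out 1 P rat leaves that date with 1 rat, which is assumed to vary like the others. Without P 2 none of the 13 genes was called, beside 1.03% of named genes, and without P 3 4 genes were, beside 3.91%. Without P 1 it was 10, beside 9.47%, and without P 4 11, beside 9.91%. The alpha median moved about equally without P 2 (-0.41) and without P 3 (-0.44), and was -0.87 without P 1 and -0.78 without P 4. Psma2, Ube2v2 and Uba3 were called under 12 of 13 alternatives each, the exception being the fit without P 2. Plain background subtraction left 3 calls, beside 3.77% of named genes. The authors' log2 values left 5, beside 4.62%, or 11, beside 14.3%, when the variance prior was made to depend on intensity.

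**Figure D3:**
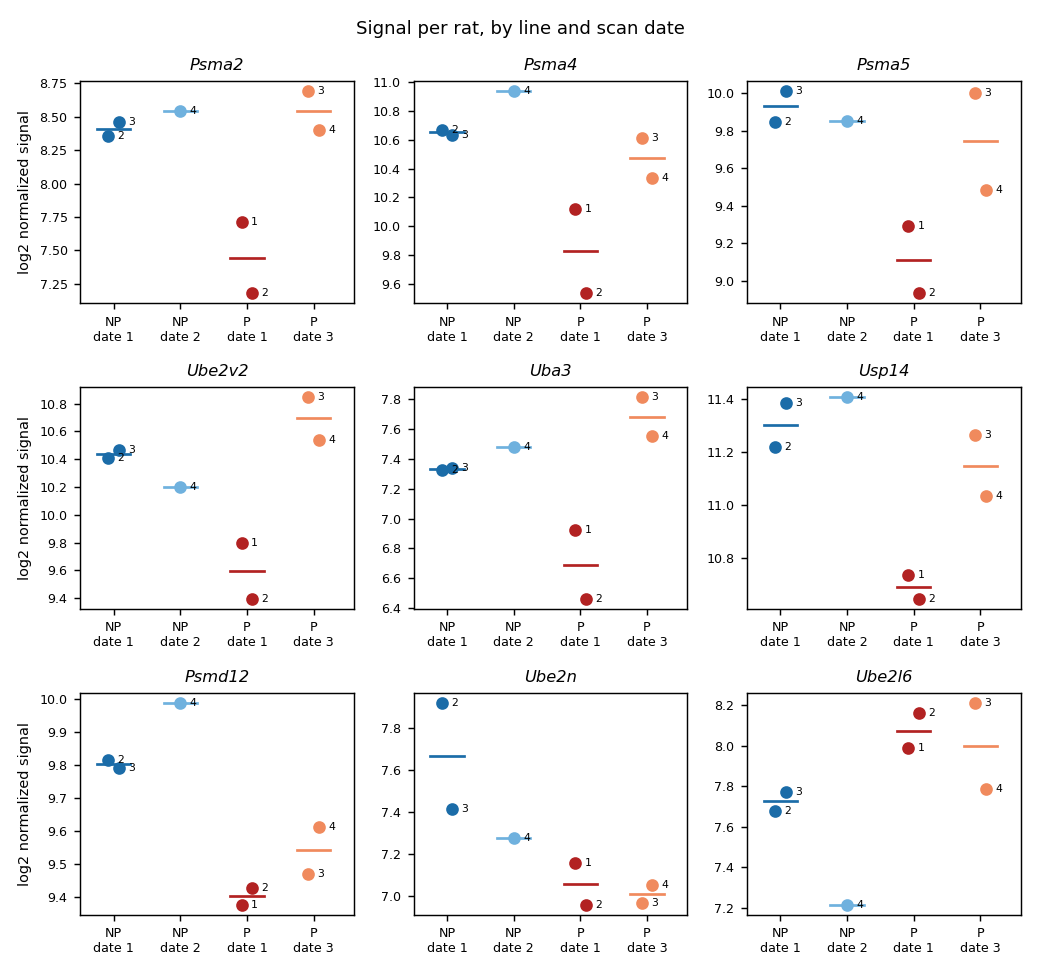
Log2 normalized signal of 9 genes in each rat (points, numbered by replicate), by line and scan date, with the mean of each set (line). P 1 and P 2 lie lowest in the first 6 genes, Psma2 to Usp14, while all P rats lie below all NP rats in Psmd12 and Ube2n, and above them in Ube2l6.

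Counted over single rats, P 1 and P 2 held the lowest pair of the 7 values in 18 of 49 genes (36.7%), beside 14.7% of named genes, and the highest pair in 4 of 49 (8.16%), beside 21.9%. Of the alpha subunits, 5 of 6 had their lowest pair there, all but Psma3, whose probe lies near the negative controls. The 4 with the highest pair were Psmd3, Ubap1, Ube2d2b and Usp2, singled out after their values were seen. This count uses the same arrays as the comparison between dates and adds no independent test.

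When P 1 and P 2 were left out, none of the 51 genes was called between the lines, beside 0.494% of named genes, and the alpha median was 0.07. Psma2 then differed by 0.09 (adjusted p = 0.773) and Uba3 by 0.30 (adjusted p = 0.305), both with a positive sign. When P 3 and P 4 were left out instead, 11 genes were called, all lower in P, beside 6.6% of named genes for that direction, and the alpha median was -0.68. Psmd12 was one of them, at -0.46 (adjusted p = 0.0435), and it differed by -0.32 (adjusted p = 0.266) with the other pair.

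**Figure D4:**
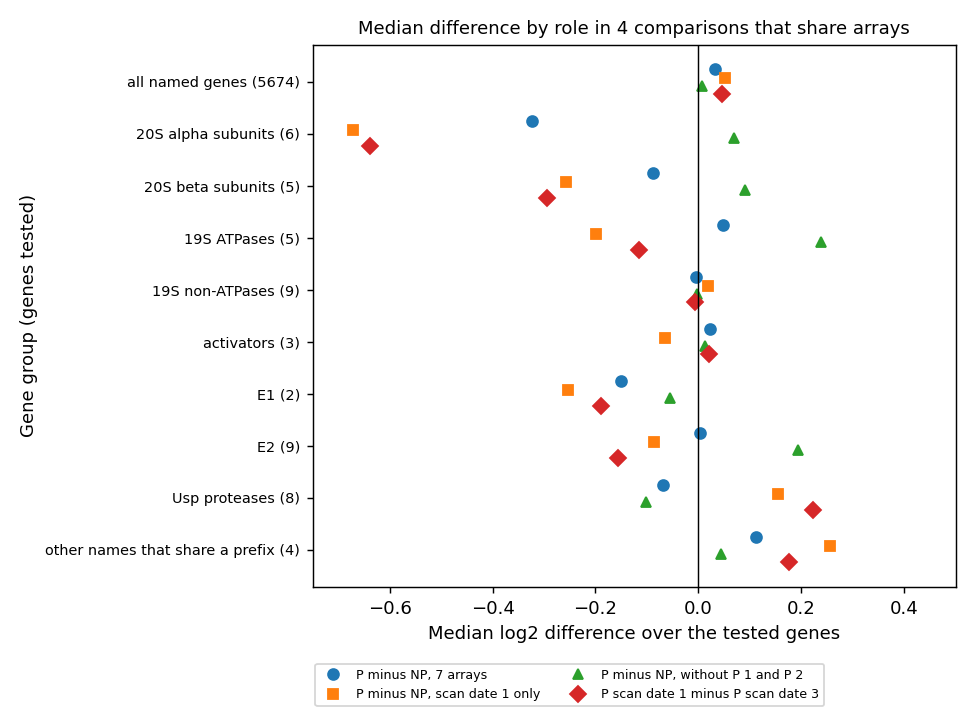
Median log2 difference of each group of genes (rows, with the number tested in the comparison of all 7 arrays) in 4 comparisons that share arrays. The alpha subunits lie at -0.67 and -0.64 in the comparisons that turn on P 1 and P 2, and at 0.07 when those rats are left out.

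Cell type markers were read in the same fits. Over 7 arrays none of the 29 tested markers was called. Between the P rats of the 2 dates 4 of 27 were: Aif1 of microglia (-0.75) and Slco1a4 of endothelium (-0.72) were lower in P 1 and P 2, and Cd68 of microglia (0.60) and Aldh1l1 of astrocytes (0.56) higher. That share, 14.8%, is near the 15.6% of all named genes. Within date 1, Aif1 (-1.23) and Slco1a4 (-0.63) were lower, out of 28 (7.14%, beside 6.37% of named genes in either direction). The summed level of the 4 neuron markers was 13.20 to 13.23 in P 1 and P 2, 13.32 to 13.37 in P 3 and P 4, and 13.03 to 13.42 in NP. For the 5 microglia markers the ranges were 11.60 to 11.71, 11.64 to 11.71 and 11.59 to 11.76, for the 5 astrocyte markers 12.45 to 12.55, 12.43 to 12.56 and 12.37 to 12.57, for the 6 oligodendrocyte markers 14.29 to 14.30, 14.28 to 14.43 and 14.31 to 14.59, and for the 3 endothelial markers 11.37 to 11.72, 11.60 to 11.62 and 11.56 to 11.68. The 3 choroid plexus markers were at 11.85 to 12.02 in P 1 and P 2 and 12.22 to 12.29 in P 3 and P 4, without overlap, with NP at 11.98 to 12.66. The 2 erythroid markers were at 9.24 to 9.70, 9.13 to 10.10 and 8.97 to 9.61. Prl, the 1 pituitary marker on the array, was near the negative controls at 6.42 to 6.74, 6.39 to 6.61 and 6.01 to 6.56. No list had a marker below background on every array. The part of these markers in the gene differences was not tested.

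Other genes of the pathway were read from fixed lists. Apart from the list of 3 immunoproteasome subunits, of which Psmb8 was called, 54 genes were tested and none was called between the lines. Between the P rats of the 2 dates 11 were called, 5 lower and 6 higher in P 1 and P 2. That is 9.26% lower and 11.1% higher, close to the 7.47% and 8.17% of all named genes. Of the ubiquitin genes and ubiquitin-like proteins, 4 of 14 were on the array. Ubl3, a membrane-anchored ubiquitin-like protein, was lower in P 1 and P 2 than in P 3 and P 4 by -0.73 ± 0.16 (adjusted p = 0.0141). Rps27a, which encodes ubiquitin fused to a ribosomal protein, and Nedd8 itself were not called in either comparison.

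Nae1, the partner of Uba3 in the E1 for Nedd8, was lower within date 1 by -0.65 (adjusted p = 0.0262) and between the P dates by -0.66 ± 0.13 (adjusted p = 0.0098). It differed by -0.34 ± 0.19 between the lines over 7 arrays (adjusted p = 0.50). Atg3, an E2-like enzyme of autophagy, was lower within date 1 by -0.56 (adjusted p = 0.0413), and Sae1 was called in none. Of the regulators of the proteasome, Nfe2l2 was lower between the P dates by -0.82 ± 0.18 (adjusted p = 0.0137), and Adrm1, a ubiquitin receptor of the 19S particle, was not called.

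Ubiquitin ligases and their cofactors had 28 tested genes and a median line difference of -0.01. The smallest line p among them was for Wwp1, a HECT ligase, at -0.37 ± 0.15 (adjusted p = 0.395). Skp1, the adaptor of SCF ligases, was lower within date 1 by -0.55 (adjusted p = 0.0417). Between the P dates Trim32 (0.79), Ddb1 (0.63), Vhl (0.56), Siah2 (0.56) and Trim3 (0.56) were higher in P 1 and P 2, and Mdm4 (-0.50) was lower. Of the 5 deubiquitinases outside the Usp family none was called in these comparisons, with Uchl1 at 0.37 ± 0.17 between the lines (adjusted p = 0.434). Of the 12 p97 and shuttle genes, Bag6 was higher in P 1 and P 2 than in P 3 and P 4 by 0.66 ± 0.14 (adjusted p = 0.0107), and the smallest line p was for Sel1l, at 0.29 ± 0.14 (adjusted p = 0.448). Of the immunoproteasome subunits that the naming rule left out, Psmb9 differed by 0.05 ± 0.11 and Psmb10 by 0.08 ± 0.11 between the lines, and Psmb8, called at 0.95 ± 0.14 (adjusted p = 0.0153), was the only one of the 3 called.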

How the data were processed

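Groups and replicate numbers came from the sample titles, and scan dates from the file headers. The rule for the members uses gene names only, but this group of genes and the other lists were chosen with earlier results of these data known. Per the file headers, the deposited scanner tables hold, for each spot, its mean intensity, a local background intensity (median) and a quality flag. The authors also deposited log2 values, used as an alternative. They follow the log2 of the scanner's scaled intensity (r of 0.9985 or higher) with array medians between -0.07 and 0.05, so scale and direction match. What adjustment was made between arrays is unknown, and the scanner's software and the build were not given in the sources used here.

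Signals were processed in R 4.3.3 with limma 3.58.1, by normexp with offset 50. Spots whose quality flag held M, C or I were then set to missing and control spots left out, before quantile normalization. Probes above background on at least 3 of 7 arrays were kept (29008, of which 29003 could be fitted and 21770 were above background on all 7). Lines were compared with lmFit and eBayes without a block, and p-values adjusted by Benjamini-Hochberg over all tested probes. The 3-group fit of the P rats by scan date used the NP arrays for the spread. Accessions without versions were matched to RefSeq's GRCr8 table for names (7207 probes) and promoter windows. Named were, per role, the gene with the smallest line p, the largest difference of each sign and the brightest probe, genes called by scan date, genes whose probes disagreed, and from other lists the called genes or the smallest p.

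The fit was tested on simulated data (5 runs of 200 changed probes among 29003, P against NP), where 3.01% of calls were false. Those data held no scan date effect, so this share does not apply to calls within or between scan dates. Samples are separate rats, so p-values measure the spread between rats and arrays, and precision is limited by having 7 arrays. The alternatives changed the background correction, scaling, filter or variance prior, or used the authors' values, array weights, a replicate or scan date block, and each array left out. Those within scan date 1 that change a further choice, those without a pair of P rats, the authors' values with an intensity-dependent variance prior, and the array leave-outs between the P dates were added after seeing the data. Some genes are not reported here by name or drawn, though the counts include them.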

Additional observations from a re-analysis of the deposited data

Results flagged for a closer look

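No single value was flagged. In 69 sets of the 4 P values, 1 set per gene, the gap of the highest or lowest rat to its neighbour never passed Dixon's 95% limit, where chance alone would pass about 3.45 sets. The 3 NP values per gene are too few for that test.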

How the results depend on the processing

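Between the lines, 0 of the tested genes were called in every alternative that leaves scan date alone, and in these the probes called ranged from 51 to 121 over the fits that left out 1 array, with 49 where probes had to be above background on all 7 arrays, 51 with the authors' values and 151 with array weights. The labels do not say whether the replicate numbers pair the rats. The correlations of deviations were 0.24, 0.016 and -0.013 for numbers 2, 3 and 4. Only number 2 has its P and NP rats on the same scan date, so these values cannot decide it. With the replicate block 105 probes and 0 of these genes were called, and their median was -0.03. Scan date changed the result. With it as a block 1660 probes and 5 of these genes were called (median -0.094), within date 1 it was 1870 and 6 (the same median), 1965 and 7 with a variance prior that follows intensity, and 36 and 0 with the authors' values (median -0.11). Within date 1, leaving out 1 array gave 1842 probes, 5 genes and a median of -0.117 (NP 2), 882, 5 and -0.12 (NP 3), 2216, 10 and -0.154 (P 1), and 255, 0 and -0.082 (P 2). Without P 1 and P 2, 189 probes and 0 genes were called. Without P 3 and P 4 it was 3318 probes and 11 genes (median -0.14). Between the P dates the 13 calls became 3 with plain background subtraction, 5 with the authors' values and 0 to 15 when 1 array was left out. There 75th percentile scaling gave 14 of 51 genes, but far more probes were called as well. Of 28923 probes 7143 were higher and 2002 lower, against 1851 and 2195 in the main fit. The median over all probes moved from 0.03 to 0.24, that of these genes became 0.0034 and the share of higher calls rose from 45.7% to 78.1%. Of 1474 line values under an alternative, 155 changed sign, all of them uncalled in both fits, and 49 passed the threshold. No called value changed sign. The cause of these shifts was not tested. Changes under 0.5 are mostly beyond what 7 arrays can call.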
